A study of Mus musculus with 25 samples.

Results

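Liver makes glucose from lactate and amino acids and turns the nitrogen of amino acids into urea, and 40 genes of these pathways were followed here over 6 groups of mouse liver. They were taken from a list of gene symbols, by pathway: 4 gluconeogenesis genes, 5 of tyrosine breakdown, 4 of tryptophan breakdown, 7 transaminase, serine and glyoxylate genes, 3 of histidine breakdown, 6 of methionine and one-carbon metabolism, 5 of glutamate, proline and lysine metabolism, and 6 of the urea cycle. Of the 40, 35 had a probe set that the platform annotation gives to that gene alone, out of 19938 such genes, and all 35 were among the 15951 genes bright enough to be tested. Sds, Sdsl and Gls2 were in none of the annotated probe sets, and Ahcy and Ass1 only in probe sets shared with a second symbol, so these 5 have no value here. Every value is a log2 signal of 1 Affymetrix array, on which 1 unit is a doubling, and signals of different genes were not compared.

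The mice, of strain FVB;129, had loxP sites in Rb, in p53 or in both genes and a Cre recombinase driven by the promoter of albumin, a hepatocyte gene, so the deletion is expected in hepatocytes while the other liver cells keep the genes. Rb restrains entry into S phase and p53 responds to DNA damage. By the labels' status of the 2 genes the animals are called WT, p53KO, RbKO and DKO (both deleted), and the labels do not say whether WT mice carried Cre. Diethylnitrosamine (DEN), a carcinogen that hepatocytes convert to a DNA-alkylating agent, was given once at 20 mg/kg into the peritoneum at 14 days of age, and liver was taken after 24 h. The groups were 3 WT and 3 DKO arrays without DEN, and 5 WT, 5 p53KO, 4 RbKO and 5 DKO arrays after DEN. The labels give the treatment of the first 2 groups as none and the series text speaks of saline, and they are called untreated here. The labels give no sex, feeding state or hour of collection, and do not say that the arrays of a group are separate animals, so the p-values rest on a spread between arrays that may be technical.

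In gluconeogenesis, pyruvate carboxylase and phosphoenolpyruvate carboxykinase carry pyruvate and oxaloacetate into the pathway, fructose-1,6-bisphosphatase passes its middle step, and glucose-6-phosphatase releases glucose into the blood. Transaminases and the breakdown enzymes of single amino acids supply its carbon and pass nitrogen through glutamate and aspartate to the urea cycle, which in the liver runs mainly in hepatocytes around the portal vein. Many of these genes are switched on around birth and are raised by glucagon and glucocorticoids and lowered by insulin and by acute injury of the liver.

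By the dates in their names the arrays form 3 sets, of which set 1 has 16 arrays, set 2 has 4 and set 3 has 5, and what the dates mark is not stated. Set 1 holds all 6 groups. Set 2 holds untreated WT replicate 3, DEN WT replicates 4 and 5 and RbKO replicate 4, and set 3 holds p53KO replicates 3 to 5 and DKO replicates 4 and 5 after DEN. Set 2 stood apart along the first principal component, which held 25.8% of the variance, so the set was a term of the fit and set 1 was also fitted alone. Of the 6 hepatocyte markers tested, Alb, Ttr, Apoa1, Apob and Fgb lay between 10.97 and 12.91 on all arrays, and Hnf4a ranged from 6.95 to 9.29. The signal of Rb1, the gene of the retinoblastoma protein, was 5.04 to 6.02 in WT and 5.55 to 6.28 in RbKO after DEN, so this probe set did not separate these genotypes. Without DEN it was 5.30 to 5.76 in WT and 4.76 to 5.02 in DKO, with no overlap, and DKO after DEN, at 5.18 to 5.82, lay within the range of WT after DEN. Which part of the gene was deleted is not given in the labels. The genotypes below are those of the labels.

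The promoters of 4 members, those called in the most comparisons described below with ties broken by the smallest p, show the DNA before the start sites of the genes that changed most often. They are the 250 bases before the RefSeq start site in build GRCm38.p6, all on the plus strand, 5′ to 3′, with capitals marking each match to a searched motif on either strand. Pck1 lies at chr2:173152823-173153072, Gstz1 at chr12:87146915-87147164 (the first of its 2 RefSeq promoters), Hgd at chr16:37579903-37580152 and Agxt at chr1:93134990-93135239.

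Pck1: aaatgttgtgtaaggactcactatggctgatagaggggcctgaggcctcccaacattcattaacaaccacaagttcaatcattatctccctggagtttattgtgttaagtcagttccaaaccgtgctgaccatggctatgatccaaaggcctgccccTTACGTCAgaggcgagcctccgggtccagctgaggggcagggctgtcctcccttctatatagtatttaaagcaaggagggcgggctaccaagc

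Gstz1: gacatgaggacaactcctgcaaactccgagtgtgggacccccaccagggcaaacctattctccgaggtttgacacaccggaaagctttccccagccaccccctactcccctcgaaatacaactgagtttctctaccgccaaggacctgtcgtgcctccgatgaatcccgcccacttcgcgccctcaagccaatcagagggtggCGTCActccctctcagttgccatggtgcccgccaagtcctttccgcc

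Hgd: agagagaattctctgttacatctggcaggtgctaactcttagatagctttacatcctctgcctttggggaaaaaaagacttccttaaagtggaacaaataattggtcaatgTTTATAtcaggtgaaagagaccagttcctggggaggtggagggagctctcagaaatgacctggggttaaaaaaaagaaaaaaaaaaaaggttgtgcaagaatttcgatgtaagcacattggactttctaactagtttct

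Agxt: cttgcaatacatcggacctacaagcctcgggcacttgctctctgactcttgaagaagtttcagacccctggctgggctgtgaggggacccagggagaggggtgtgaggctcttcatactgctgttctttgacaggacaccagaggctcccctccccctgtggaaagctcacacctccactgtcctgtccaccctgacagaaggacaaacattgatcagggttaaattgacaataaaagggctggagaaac

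In Pck1 the capitals are TTACGTCA, at positions -93 to -86 from the start, the form of the cAMP response element known from this gene. In Gstz1 they are the half-site TGACG read on the other strand, at positions -47 to -43, and in Hgd TATAAA on the other strand, at positions -139 to -134. The Agxt stretch had no match to any of the motifs. RefSeq promoters of 300 bases, 250 before and 50 after the start, were found for 28 of the 35 members. Of 32851 such promoters, TTACGTCA was in 0.499% (1 of the 28 members) and TGACG, which can overlap it, in 20.8% (5 of 28). TATAAA was in 13.6% (6 of 28). No member promoter held TGACGTCA (1.79% of all), the C/EBP motif TTGCGCAA (0.183%), the forkhead motif GTAAACA (3.65%), the HNF4 motif CAAAGTCCA (0.475%), the palindromic HNF1 motif (0.00913%) or the E2F motifs TTTGGCGC (0.514%) and TTTCCCGC (1.07%). A match is a description of the letters, not a measured binding site.

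By the group mean of the 35 signals, untreated liver was highest and RbKO and DKO liver after DEN lowest. Not every gene had this order. Gpt2, Aass, Arg1 and Tdo2 had their lowest group mean in untreated DKO, and Ftcd had its highest in WT after DEN. The mean of the 35 signals was 9.44 and 9.51 on the set 1 arrays of untreated WT and 8.65 on replicate 3, and 9.03 to 9.17 in untreated DKO. After DEN it was 8.72 to 9.12 in WT, 8.45 to 8.77 in p53KO, 8.32 to 8.49 in RbKO and 8.17 to 8.59 in DKO. Untreated WT replicate 3, the 1 untreated array of set 2, was thus below every other untreated array and below all 5 WT arrays after DEN.

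**Figure D1:**
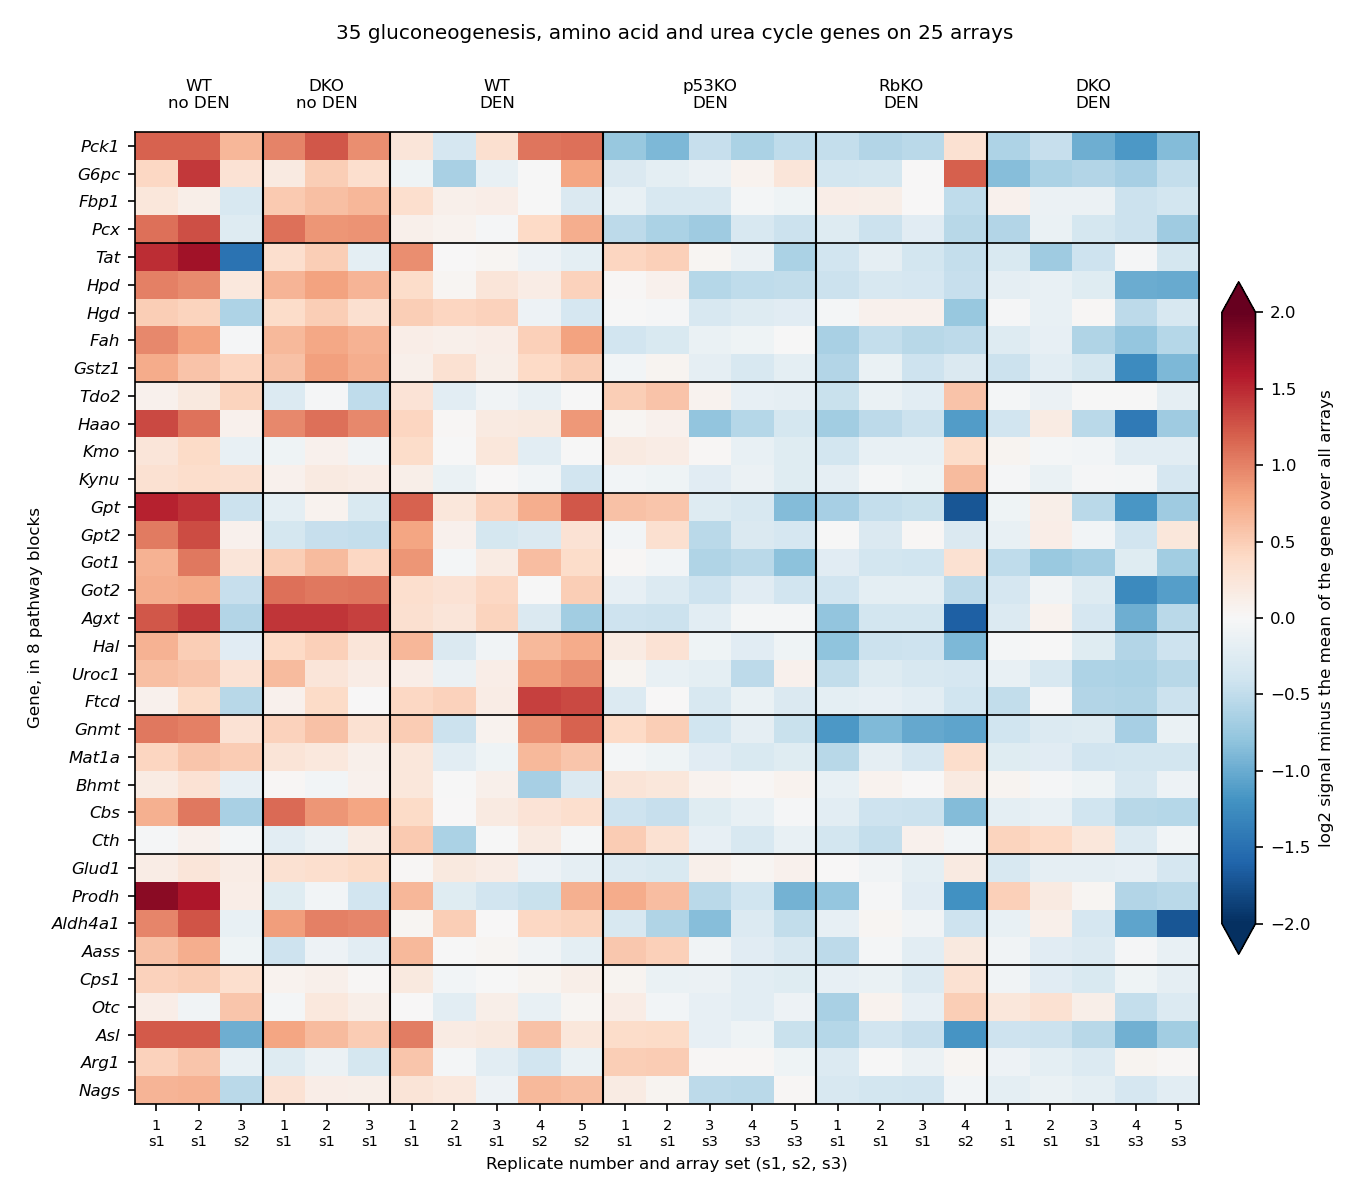
Each row is 1 of the 35 genes in 8 pathway blocks and each column 1 of the 25 arrays, labelled by replicate and array set (s1, s2, s3) under its group; colour is the log2 signal minus the mean of that gene over all arrays, and no DEN means untreated. Most rows are red in the set 1 columns of untreated liver and blue in RbKO and DKO after DEN, and the s2 column of untreated WT breaks its group.

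A gene was called when its adjusted p in limma was under 0.05, with Benjamini-Hochberg adjustment over all 15951 genes. In DKO, DEN against untreated called 18 of the 35 members lower and 0 higher, while 16.5% of all genes were called lower and 4.49% higher. The members' median difference was -0.53 log2, against -0.0040 for all genes, and 26 of 35 were below 0. Pck1, Agxt and Got2 fell the most, and 4 of the 5 tyrosine enzymes (all but Tat), 3 of the 5 transaminases (not Gpt or Gpt2) and 2 of the 4 glutamate, proline and lysine genes (Glud1 and Aldh4a1) were called lower, whereas Cps1, Otc and Arg1 of the urea cycle and Tdo2, Kmo and Kynu of tryptophan breakdown were not called. In set 1 alone 22 members were called lower, with 18.7% of all genes. The members' mean signals ran from 5.26 to 11.92, whereas all genes reached down to 3.33, so the shares given are not matched for brightness.

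In WT, DEN against untreated called only Ftcd higher and Prodh lower, with 2.08% of all genes called higher and 1.91% lower, and a median of -0.29 over the members. The median was -0.53 in set 1 alone, where that of DKO was -0.56, and -0.54 without untreated WT replicate 3. The array sets differed here. In set 1, with 2 untreated and 3 DEN arrays, 21 members were called lower and 0 higher, with 5.96% of all genes called lower. There 950 of all genes were called lower, out of 1747 called in either direction. Set 2 has a single untreated array, WT replicate 3, so its 2 DEN arrays were set against 1 array, which was assumed to vary like the others. In that fit Asl, Ftcd, Gpt, Nags and Tat were higher after DEN, with 0.633% of all genes, and these are values of that 1 array rather than a replicated rise. Without untreated WT replicate 3, 14 members were called lower, with 3.07% of all genes called lower. The calls below 0 after DEN in WT are thus mostly those of set 1.

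The difference between both DEN responses, that of DKO minus that of WT, was called below 0 for 9 members and above 0 for 2, Prodh and Gpt2. Of all genes 8.54% were called below 0 and 1.36% above. The members' median of this difference was -0.48 over all sets, 0.03 in set 1 alone and -0.13 without untreated WT replicate 3. The calls below 0 were Got2, Pck1, Ftcd, Cbs, Agxt, Fah, Gstz1, Fbp1 and Hgd. Most also rested on untreated WT replicate 3: without that array Got2 and Fbp1 were called below 0 and Prodh and Gpt2 above, with 4.3% and 0.752% of all genes. In set 1 alone the calls were Got2, Fbp1 and Glud1 below 0, with 6.09% of all genes, and Prodh and Gpt2 above, with 1.27%.

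**Figure D2:**
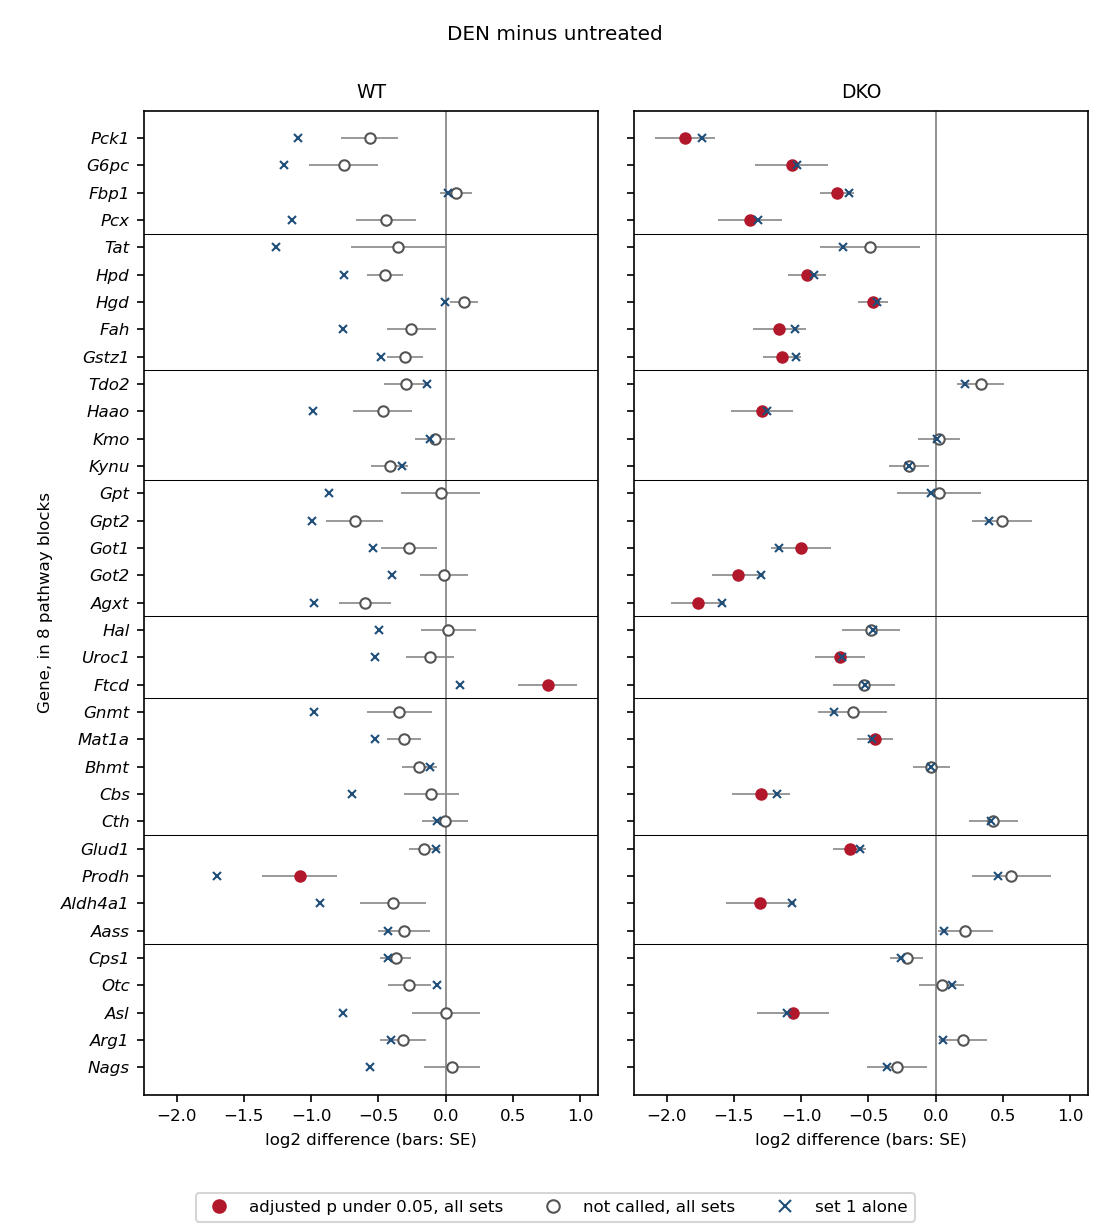
For each of the 35 genes the point is the log2 difference DEN minus untreated in WT and in DKO from the fit over all arrays, bars are its SE, red points have an adjusted p under 0.05, and crosses are the differences in set 1 alone. In DKO the crosses lie near the points, with 18 red points all below 0; in WT most crosses lie below the points, and 2 points are red.

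Without DEN, DKO was called lower than WT for Gpt2 and Prodh and higher for 0 members, with 0.244% of all genes called lower. Of all genes, 39 were called lower here, out of 177 called in either direction. Set 1 alone called 8 members lower, Prodh, Gpt, Gpt2, Tat, Aass, Arg1, Nags and Cps1, and Fbp1 higher, with 1.8% of all genes called lower and 3.79% higher.

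After DEN, each knockout was set against WT. RbKO was called lower than WT for 17 members and DKO also for 17, with 6.13% and 9.14% of all genes called lower, medians of -0.60 and -0.52, and 0 members called higher in either. Of all 15951 genes, 977 were called lower in RbKO, out of 1811 called in either direction. In DKO 1458 were lower, out of 1887. Set 1 alone called 15 members lower in each, with 2.38% and 7.97% of all genes. p53KO was called lower than WT for Pck1 and Hgd, with 1.07% of all genes called lower and a median of -0.28 over the members. In set 1 alone it was lower for 10 members, with 4.36% of all genes, and higher for Tdo2, with 1.55%. Set 3, with 3 of the 5 p53KO arrays, holds no WT array. These comparisons share their WT arrays, and the knockouts are compared with each other directly further on.

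Between the knockouts few members were called. p53KO was above RbKO for Gnmt, with 0.194% of all genes called higher, and in set 1 alone for 9 members (Gnmt, Tdo2, Gpt, Asl, Aass, Prodh, Nags, Hal and Arg1), with 1.14% of all genes. DKO was below p53KO for Gstz1, with 1.51% of all genes called lower, and in set 1 alone for Asl, Arg1, Gnmt, Tat, Aass and Tdo2, with 2.5% of all genes. DKO and RbKO had 0 members called in limma (6 had an unadjusted p under 0.05), with 1.03% of all genes called in either direction, and set 1 alone called Gnmt higher in DKO, with 0.545% of all genes.

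**Figure D3:**
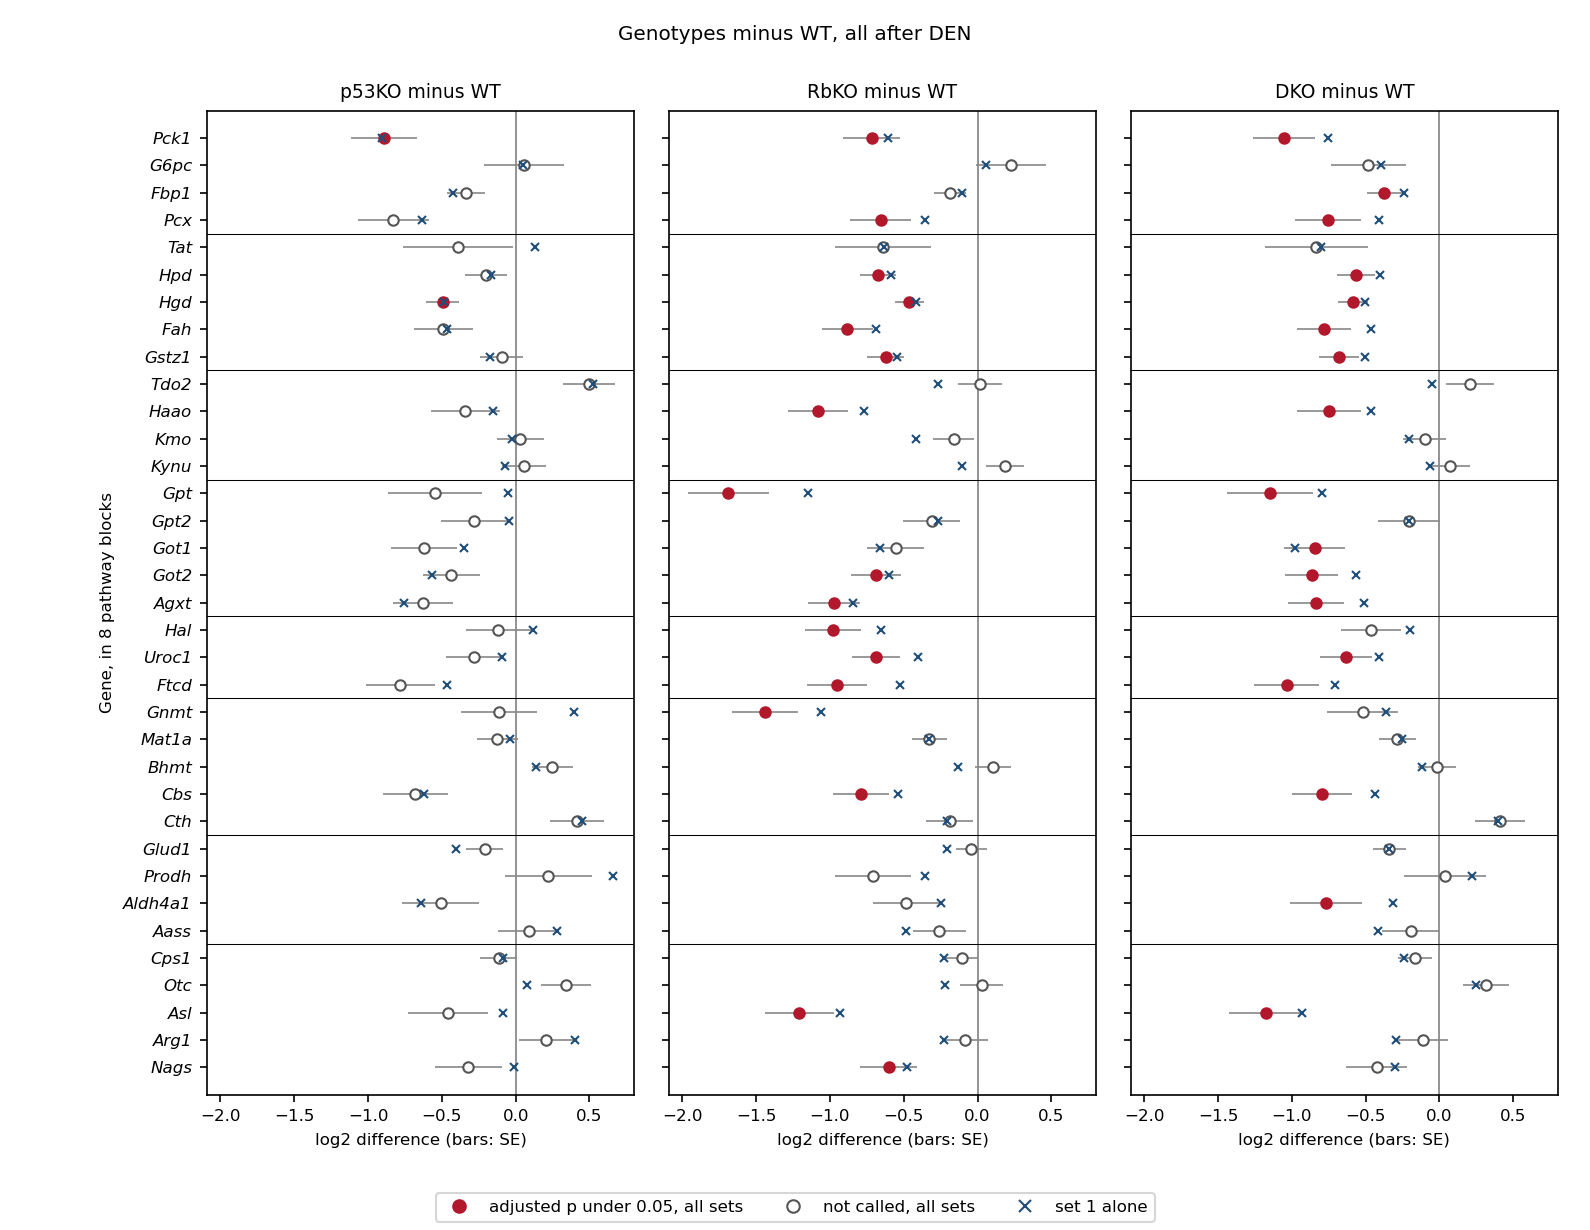
For each of the 35 genes the point is the log2 difference of p53KO, RbKO or DKO minus WT, all after DEN, from the fit over all arrays, with its SE as bars; red points have an adjusted p under 0.05 and crosses are set 1 alone. RbKO and DKO have 17 red points each and p53KO 2, and all red points lie below 0.

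Leaving out single arrays moved these counts unevenly. The 18 members lower in DKO after DEN became 16 to 19, and of the 18 calls only those of Uroc1 and Mat1a ended when an array was left out. The 17 of RbKO became 12 to 20, and without RbKO replicate 4 the calls of Pck1, Pcx, Uroc1, Ftcd, Cbs and Nags ended, at adjusted p values of 0.0604 for Pck1 and 0.172 for Pcx. With that array left out, 12 members and 279 of all genes were called in either direction, against 17 and 1811 with it. The calls of Pck1, Pcx and Nags also ended without WT replicate 4 or 5, and that of Pcx without any 1 of the RbKO arrays. Without the whole of set 2, RbKO had 8 members called lower, with 0.903% of all genes. The 17 of DKO against WT became 12 to 18, and 6 members had calls that ended. Those were Gpt and Uroc1 without DKO replicate 3, Pcx without DKO replicate 1, and Haao without either of these. The call of Aldh4a1 ended without DKO replicate 3 or WT replicate 2, 4 or 5, and that of Fbp1 without WT replicate 1 or 4 or any of DKO replicates 2 to 5.

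In the paragraphs on each pathway the signals of 2 members are given for every array, in replicate order, so that in each group the arrays of set 1 come first: 2 in untreated WT, 3 in untreated DKO, 3 in WT, 2 in p53KO, 3 in RbKO and 3 in DKO after DEN. The plot of 16 genes by array shows the same values.

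**Figure D4:**
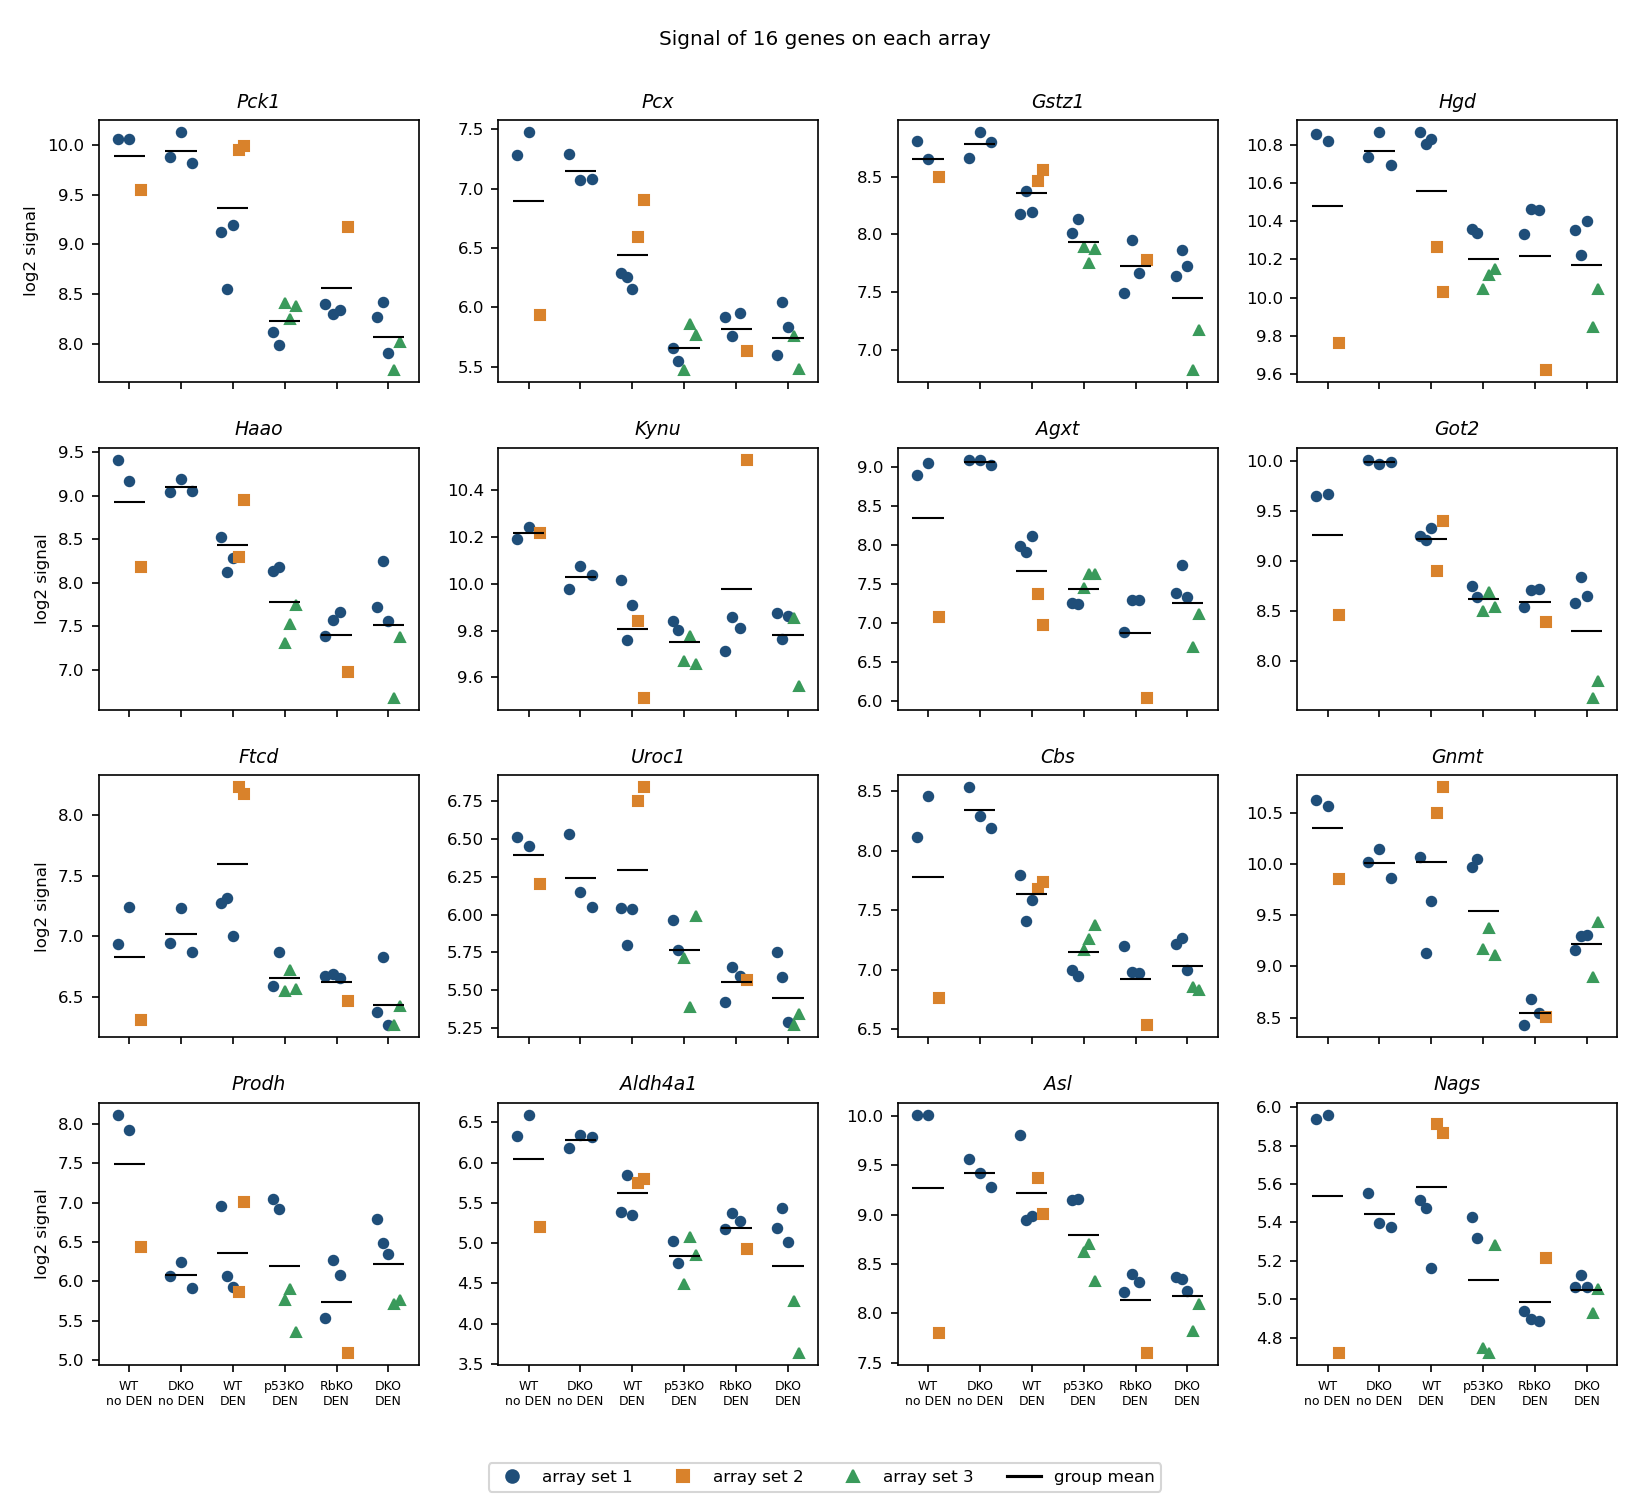
Each panel is 1 gene, each symbol 1 array (log2 signal, shape and colour by array set), and the black line the mean of the group. The orange square of untreated WT (set 2) lies below the blue circles of that group in every panel but that of Kynu, and Gnmt is lowest in RbKO.

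All 4 gluconeogenesis genes fell after DEN in DKO. Untreated Pck1 signals (phosphoenolpyruvate carboxykinase, the step most controlled by transcription) were 10.06, 10.05 and 9.55 in WT and 9.88, 10.13 and 9.81 in DKO. After DEN, Pck1 gave 9.12, 8.55, 9.20, 9.95 and 9.99 in WT and 8.12, 7.99, 8.41, 8.25 and 8.38 in p53KO. RbKO arrays read 8.40, 8.30, 8.34 and 9.18 and DKO arrays 8.27, 8.42, 7.91, 7.74 and 8.02. Every untreated array was above every knockout array after DEN, every p53KO and DKO array was below every WT array after DEN, and the DEN WT arrays of set 2 lay within the untreated range while those of set 1 lay below it. Pck1 fell 3.64-fold after DEN in DKO, a difference of -1.86 (SE 0.22, adjusted p = 3.51e-06). In WT it was -0.56 (SE 0.21, adjusted p = 0.144), and in set 1 alone -1.10 (adjusted p = 0.000548). The responses of DKO and WT differed by -1.30 (SE 0.31, adjusted p = 0.00815), and without untreated WT replicate 3 the adjusted p was 0.0609. Relative to WT after DEN, Pck1 was -0.89 (SE 0.23, adjusted p = 0.0402) in p53KO, -0.72 (SE 0.20, adjusted p = 0.0195) in RbKO and -1.06 (SE 0.21, adjusted p = 0.00183) in DKO. The p53KO call ended without either p53KO array of set 1, or without WT replicate 1, 3, 4 or 5, up to an adjusted p of 0.203 without p53KO replicate 2.

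Pcx encodes pyruvate carboxylase, the mitochondrial entry step. Untreated Pcx signals were 7.28, 7.48 and 5.93 in WT and 7.29, 7.07 and 7.08 in DKO. After DEN, Pcx gave 6.29, 6.26, 6.16, 6.59 and 6.91 in WT and 5.66, 5.55, 5.47, 5.86 and 5.76 in p53KO. It was 5.92, 5.76, 5.96 and 5.63 in RbKO and 5.60, 6.05, 5.84, 5.76 and 5.48 in DKO. All knockout arrays after DEN were below all WT arrays after DEN, and untreated WT replicate 3 was down among the knockouts. Pcx was 2.61-fold lower after DEN in DKO, at -1.38 (SE 0.24, adjusted p = 0.000153), and in WT of set 1 alone it was -1.14 (adjusted p = 3.6e-05) although over all sets it was -0.44 (SE 0.22, adjusted p = 0.316). Against WT after DEN it was -0.65 (SE 0.21, adjusted p = 0.0406) in RbKO, -0.76 (SE 0.22, adjusted p = 0.0263) in DKO and -0.83 (SE 0.24, adjusted p = 0.0672) in p53KO. The RbKO value was -0.36 in set 1 alone and not called (adjusted p = 0.108).

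Fbp1 (fructose-1,6-bisphosphatase) and G6pc (the catalytic subunit of glucose-6-phosphatase) fell less. Fbp1 averaged 10.30 ± 0.07 (SD, n = 3) in untreated DKO and 9.51 ± 0.21 (n = 5) after DEN, a difference of -0.73 (SE 0.13, adjusted p = 0.000154) with no overlap of the arrays. In WT it was 9.72 ± 0.29 before and 9.76 ± 0.23 after, which overlapped, and the responses differed by -0.81 (SE 0.17, adjusted p = 0.00412). G6pc went from 9.09 ± 0.16 to 8.11 ± 0.14 in DKO, a difference of -1.07 (SE 0.27, adjusted p = 0.0056). In WT its difference was -0.76 (SE 0.26, adjusted p = 0.0982), and in set 1 alone -1.20 (adjusted p = 0.00189). G6pc was not called between any genotypes, and 1 RbKO array, replicate 4 of set 2, read 9.94 where the other 3 reached at most 8.76.

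Tyrosine breakdown runs from tyrosine aminotransferase (Tat) through Hpd, Hgd and Gstz1 to fumarylacetoacetase (Fah), and the last 4 of these enzymes fell after DEN in DKO. Gstz1, the maleylacetoacetate isomerase, was called in 5 comparisons. Untreated Gstz1 signals were 8.81, 8.65 and 8.50 in WT and 8.66, 8.89 and 8.80 in DKO. After DEN, Gstz1 gave 8.18, 8.38, 8.19, 8.46 and 8.56 in WT and 8.02, 8.13, 7.89, 7.75 and 7.87 in p53KO. It read 7.49, 7.95, 7.66 and 7.78 in RbKO and 7.64, 7.86, 7.72, 6.82 and 7.17 in DKO. Every knockout array after DEN was below every WT array, and the DKO arrays of set 3 were the lowest of all 25. The DEN difference in DKO was -1.14 (SE 0.14, adjusted p = 6.13e-06), a 2.21-fold fall, and in WT -0.30 (SE 0.14, adjusted p = 0.241). Gstz1 was -0.62 (SE 0.13, adjusted p = 0.00356) in RbKO and -0.68 (SE 0.13, adjusted p = 0.00182) in DKO relative to WT after DEN. It was also the 1 member called between DKO and p53KO, at -0.58 (SE 0.12, adjusted p = 0.0105), which was -0.33 in set 1 (adjusted p = 0.178) and had an adjusted p of 0.0541 without DKO replicate 4.

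Hgd, the homogentisate dioxygenase, was called in 5 comparisons too. Untreated Hgd signals were 10.86, 10.82 and 9.76 in WT and 10.74, 10.87 and 10.69 in DKO. After DEN, Hgd gave 10.87, 10.80, 10.83, 10.27 and 10.03 in WT and 10.36, 10.34, 10.04, 10.12 and 10.15 in p53KO. It was 10.33, 10.46, 10.46 and 9.62 in RbKO and 10.36, 10.22, 10.40, 9.85 and 10.04 in DKO. In each group that spans 2 sets the arrays of set 2 or 3 were lower, and within set 1 all knockout arrays after DEN were below all untreated and all WT arrays. Against WT after DEN, Hgd was -0.50 (SE 0.11, adjusted p = 0.0242) in p53KO, -0.46 (SE 0.10, adjusted p = 0.00422) in RbKO and -0.59 (SE 0.10, adjusted p = 0.000708) in DKO, and set 1 alone gave -0.48, -0.41 and -0.51, each called. The p53KO call ended without either p53KO array of set 1, up to an adjusted p of 0.12. In WT, the DEN difference of Hgd was 0.13 (SE 0.10, adjusted p = 0.574), and in DKO -0.47 (SE 0.11, adjusted p = 0.00325).

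Hpd, the 4-hydroxyphenylpyruvate dioxygenase, averaged 11.28 ± 0.071 (SD, n = 3) in untreated DKO and 10.05 ± 0.45 (n = 5) after DEN, a difference of -0.96 (SE 0.14, adjusted p = 3.07e-05). After DEN, DKO read 10.32 to 10.42 in set 1, the only set of untreated DKO, and 9.55 and 9.56 in set 3. Fah, whose loss causes tyrosinemia, went from 9.76 ± 0.06 to 8.58 ± 0.25, a difference of -1.16 (SE 0.20, adjusted p = 0.000129). In WT after DEN they averaged 10.82 ± 0.17 and 9.38 ± 0.30 (n = 5), and in RbKO 10.17 ± 0.066 and 8.50 ± 0.075 (n = 4). Against WT, RbKO was thus -0.67 (SE 0.12, adjusted p = 0.00188) for Hpd and -0.88 (SE 0.17, adjusted p = 0.00274) for Fah, with no overlap of arrays. Tat, the first enzyme and a classical glucocorticoid target, was not called over all sets in any comparison. Untreated WT arrays read 11.75 and 11.95 in set 1 and 8.78 in set 2 for Tat, the widest range of any group, and set 1 alone put it at -1.26 after DEN in WT (adjusted p = 0.00172).

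Tryptophan breakdown is led by tryptophan dioxygenase (Tdo2) and leads through Kmo, Kynu and Haao towards NAD, and Haao alone of the 4 was called over all sets. Untreated Haao signals were 9.42, 9.17 and 8.19 in WT and 9.05, 9.19 and 9.05 in DKO. After DEN, Haao gave 8.53, 8.12, 8.28, 8.29 and 8.96 in WT and 8.13, 8.18, 7.31, 7.53 and 7.75 in p53KO. It read 7.39, 7.57, 7.66 and 6.97 in RbKO and 7.71, 8.26, 7.56, 6.67 and 7.38 in DKO. RbKO arrays were all below the WT arrays after DEN, while DKO replicate 2 and both p53KO arrays of set 1 reached into the WT range. Haao, the 3-hydroxyanthranilate dioxygenase, differed by -1.29 (SE 0.23, adjusted p = 0.000251) after DEN in DKO. It was -1.08 (SE 0.20, adjusted p = 0.0021) in RbKO and -0.75 (SE 0.22, adjusted p = 0.0249) in DKO against WT after DEN, the latter -0.47 in set 1 alone (adjusted p = 0.0588).

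Kynu, the kynureninase, was called in no comparison. Untreated Kynu signals were 10.19, 10.24 and 10.22 in WT and 9.98, 10.08 and 10.04 in DKO. After DEN, Kynu gave 10.02, 9.76, 9.91, 9.84 and 9.51 in WT and 9.84, 9.80, 9.67, 9.78 and 9.66 in p53KO. It was 9.71, 9.86, 9.81 and 10.53 in RbKO and 9.87, 9.76, 9.86, 9.85 and 9.56 in DKO. The 3 untreated WT arrays lay above all WT arrays after DEN, and RbKO replicate 4 was the highest of the 25. The DEN difference in WT was -0.42 (SE 0.14, adjusted p = 0.0959) and that in DKO -0.20 (SE 0.15, adjusted p = 0.365). Tdo2 averaged between 11.01 and 11.52 and Kmo between 9.47 and 9.72 over the 6 groups. In p53KO after DEN, Tdo2 was 0.50 (SE 0.18, adjusted p = 0.134) relative to WT, and in set 1 alone 0.53 (adjusted p = 0.0497), the 1 member that set 1 called higher there.

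Transaminases move amino groups between amino acids and keto acids, and Agxt, the alanine-glyoxylate aminotransferase that clears glyoxylate, had the second largest fall after DEN in DKO. Untreated Agxt signals were 8.90, 9.06 and 7.08 in WT and 9.09, 9.10 and 9.03 in DKO. After DEN, Agxt gave 7.99, 7.91, 8.11, 7.37 and 6.97 in WT and 7.25, 7.24, 7.45, 7.62 and 7.62 in p53KO. It read 6.88, 7.29, 7.29 and 6.04 in RbKO and 7.39, 7.74, 7.33, 6.69 and 7.12 in DKO. The 5 untreated arrays of set 1 were above all other arrays, each set 2 array was below the set 1 arrays of its group, and in set 1 all knockout arrays were below WT after DEN. Agxt fell 3.4-fold in DKO, a difference of -1.77 (SE 0.20, adjusted p = 2.57e-06), and in WT of set 1 it was -0.98 (adjusted p = 0.000253) where over all sets the difference was -0.60 (SE 0.19, adjusted p = 0.081). After DEN it was -0.97 (SE 0.18, adjusted p = 0.00191) in RbKO and -0.84 (SE 0.19, adjusted p = 0.00524) in DKO relative to WT. In p53KO it was -0.63 (SE 0.20, adjusted p = 0.107), and set 1 alone called it at -0.75 (adjusted p = 0.00517).

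Got2 encodes the mitochondrial aspartate aminotransferase, and aspartate brings nitrogen into the urea cycle. Untreated Got2 signals were 9.65, 9.67 and 8.46 in WT and 10.01, 9.97 and 9.99 in DKO. After DEN, Got2 gave 9.25, 9.20, 9.32, 8.90 and 9.40 in WT and 8.75, 8.64, 8.50, 8.69 and 8.54 in p53KO. It was 8.54, 8.71, 8.72 and 8.39 in RbKO and 8.58, 8.84, 8.65, 7.63 and 7.80 in DKO. Untreated DKO was above every other array, all knockout arrays after DEN were below all WT arrays after DEN, and the set 3 arrays of DKO were lowest. The fall in DKO was 2.77-fold, at -1.47 (SE 0.19, adjusted p = 8.85e-06), while WT was at -0.014 (SE 0.18, adjusted p = 0.984) over all sets and at -0.40 in set 1 alone (adjusted p = 0.0272). The responses differed by -1.46 (SE 0.26, adjusted p = 0.00109), which kept its call without each single array and in set 1 alone, at -0.90 (adjusted p = 0.00216). Relative to WT after DEN, Got2 was -0.69 (SE 0.17, adjusted p = 0.00958) in RbKO and -0.87 (SE 0.18, adjusted p = 0.00253) in DKO. A second Got2 probe set followed it (r = 0.995 over 25 arrays, as a description).

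The cytosolic partner Got1 averaged 9.96 ± 0.11 (SD, n = 3) in untreated DKO and 8.87 ± 0.20 (n = 5) after DEN, a difference of -1.0 (SE 0.22, adjusted p = 0.00183), and was -0.84 (SE 0.21, adjusted p = 0.00885) against WT after DEN. Gpt and Gpt2 are the alanine transaminases. Gpt was 7.46 ± 0.44 (n = 5) in WT and 5.87 ± 0.60 (n = 4) in RbKO after DEN, with no overlap, a 3.22-fold difference of -1.69 (SE 0.27, adjusted p = 0.00131) that was the largest of any member against WT after DEN. It was -1.15 (SE 0.29, adjusted p = 0.0118) in DKO, with an adjusted p of 0.0503 without DKO replicate 3. In set 1 Gpt averaged 7.32 in WT and 6.17 in RbKO after DEN. In set 2 WT averaged 7.67 and RbKO replicate 4 read 4.99. Gpt2 was already low in untreated DKO, at 4.97 ± 0.071 (n = 3) against 6.21 ± 0.64 in untreated WT, a difference of -1.38 (SE 0.24, adjusted p = 0.00396). The call of Gpt2 ended without untreated WT replicate 2, at an adjusted p of 0.0555. Its DEN response was 0.49 (SE 0.22) in DKO and -0.68 (SE 0.21) in WT, and these differed by 1.17 (SE 0.31, adjusted p = 0.0157).

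The histidine pathway, from histidase (Hal) through urocanase (Uroc1) to Ftcd, which hands a one-carbon unit to folate, was lower in RbKO than in WT after DEN at all 3 steps. Untreated Ftcd signals were 6.93, 7.24 and 6.30 in WT and 6.94, 7.24 and 6.87 in DKO. After DEN, Ftcd gave 7.27, 7.31, 7.00, 8.23 and 8.17 in WT and 6.59, 6.87, 6.54, 6.72 and 6.57 in p53KO. It read 6.67, 6.69, 6.65 and 6.46 in RbKO and 6.37, 6.83, 6.27, 6.26 and 6.42 in DKO. The DEN WT arrays of set 2 were the highest of all 25, and every knockout array was below every WT array after DEN. In WT, Ftcd rose with DEN by 0.76 (SE 0.22, adjusted p = 0.0499), but the difference was 0.11 in set 1 alone (adjusted p = 0.774), and the 1 untreated array of set 2 read 6.30. The call ended without untreated WT replicate 1 or 3 or WT replicate 1, 2, 4 or 5, at an adjusted p of 0.539 without untreated WT replicate 3. Against WT after DEN, Ftcd was -0.95 (SE 0.20, adjusted p = 0.0049) in RbKO and -1.03 (SE 0.22, adjusted p = 0.00306) in DKO. In set 1 alone these were -0.53 (adjusted p = 0.0609) and -0.71 (adjusted p = 0.00555).

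Uroc1 also had its highest signals on the DEN WT arrays of set 2. Untreated Uroc1 signals were 6.51, 6.45 and 6.20 in WT and 6.53, 6.15 and 6.05 in DKO. After DEN, Uroc1 gave 6.04, 5.80, 6.04, 6.75 and 6.84 in WT and 5.96, 5.76, 5.71, 5.39 and 5.99 in p53KO. It was 5.42, 5.65, 5.59 and 5.57 in RbKO and 5.76, 5.59, 5.29, 5.27 and 5.34 in DKO. RbKO and DKO arrays were all below the WT arrays after DEN, p53KO arrays overlapped both, and the DEN WT arrays of set 2 were again the highest. Uroc1 was -0.69 (SE 0.16, adjusted p = 0.00871) in RbKO and -0.63 (SE 0.18, adjusted p = 0.0189) in DKO against WT, of which set 1 alone gave -0.40 and -0.41 with adjusted p values of 0.121 and 0.0673. After DEN in DKO the difference was -0.71 (SE 0.19, adjusted p = 0.00728), a call that ended without untreated DKO replicate 1 (adjusted p = 0.0659). Hal averaged 8.29 ± 0.48 (SD, n = 5) in WT and 7.32 ± 0.25 (n = 4) in RbKO after DEN, a difference of -0.98 (SE 0.19, adjusted p = 0.00269).

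Methionine is activated by Mat1a, spent by the glycine methyltransferase Gnmt and passed on to cysteine by Cbs and Cth. Gnmt had its lowest signals in RbKO liver. Untreated Gnmt signals were 10.62, 10.56 and 9.85 in WT and 10.02, 10.15 and 9.86 in DKO. After DEN, Gnmt gave 10.07, 9.13, 9.63, 10.50 and 10.75 in WT and 9.97, 10.05, 9.17, 9.38 and 9.11 in p53KO. It read 8.42, 8.69, 8.54 and 8.51 in RbKO and 9.16, 9.29, 9.30, 8.89 and 9.44 in DKO. The 4 RbKO arrays were the 4 lowest of all 25, in both of their sets. Gnmt was 2.71-fold lower in RbKO than in WT after DEN, at -1.44 (SE 0.22, adjusted p = 0.00131), and -1.06 in set 1 alone (adjusted p = 0.0063). It was higher in p53KO than in RbKO by 1.32 (SE 0.26, adjusted p = 0.0134), a call that ended without either p53KO array of set 1 (adjusted p = 0.11 without replicate 2) or without RbKO replicate 1. The difference of DKO was -0.52 (SE 0.24, adjusted p = 0.171) against WT and 0.92 (SE 0.24, adjusted p = 0.0616) against RbKO, and set 1 alone called the latter at 0.70 (adjusted p = 0.0364).

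Cbs, the cystathionine beta-synthase, was called in 4 comparisons. Untreated Cbs signals were 8.12, 8.46 and 6.76 in WT and 8.53, 8.29 and 8.19 in DKO. After DEN, Cbs gave 7.79, 7.41, 7.58, 7.68 and 7.74 in WT and 7.00, 6.95, 7.16, 7.26 and 7.38 in p53KO. It was 7.20, 6.99, 6.98 and 6.53 in RbKO and 7.22, 7.26, 7.00, 6.86 and 6.83 in DKO. All knockout arrays after DEN were below all WT arrays after DEN, and untreated WT replicate 3 was below all of them but RbKO replicate 4. The DEN difference was -1.30 (SE 0.22, adjusted p = 0.000116) in DKO, a 2.46-fold fall, and -0.11 (SE 0.20, adjusted p = 0.859) in WT, or -0.69 in WT of set 1 (adjusted p = 0.00486). After DEN it was -0.79 (SE 0.19, adjusted p = 0.0092) in RbKO, -0.80 (SE 0.20, adjusted p = 0.0117) in DKO and -0.68 (SE 0.22, adjusted p = 0.102) in p53KO relative to WT. The RbKO call ended without RbKO replicate 4, at an adjusted p of 0.0713.

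Mat1a fell after DEN in DKO, with a difference of -0.45 (SE 0.14, adjusted p = 0.0183), from 11.68 ± 0.079 (SD, n = 3) to 11.18 ± 0.076 (n = 5), and the call ended without untreated DKO replicate 1 (adjusted p = 0.0745), untreated DKO replicate 2 or DKO replicate 3. Cth and Bhmt, which remakes methionine from betaine, were not called in any comparison over all sets. Cth averaged 8.51 to 8.86 and Bhmt 11.45 to 11.70 over the 6 groups. The Bhmt probe sets disagreed: one of the other 2 correlated with the brightest at 0.14 over 25 arrays and averaged 7.88 in untreated DKO against 8.72 in untreated WT, where the brightest gave 11.59 and 11.67.

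Proline is oxidised by proline dehydrogenase (Prodh), its product is turned into glutamate by Aldh4a1, and these 2 genes moved differently. Untreated Prodh signals were 8.11, 7.92 and 6.44 in WT and 6.07, 6.24 and 5.92 in DKO. After DEN, Prodh gave 6.96, 6.07, 5.93, 5.86 and 7.01 in WT and 7.04, 6.92, 5.77, 5.90 and 5.35 in p53KO. It read 5.54, 6.27, 6.08 and 5.09 in RbKO and 6.79, 6.49, 6.34, 5.72 and 5.76 in DKO. Untreated WT was above untreated DKO on all arrays, most in set 1, and after DEN the genotypes overlapped. In untreated liver Prodh was 3.06-fold lower in DKO, at -1.61 (SE 0.32, adjusted p = 0.00933). The call ended without untreated WT replicate 1 (adjusted p = 0.124), untreated WT replicate 2 or untreated DKO replicate 3. In WT it fell after DEN, with a difference of -1.08 (SE 0.28, adjusted p = 0.0248), or -1.70 in set 1 (adjusted p = 0.000244), a call that ended without either untreated WT array of set 1 or WT replicate 2, 3 or 4, up to an adjusted p of 0.203. In DKO it was 0.56 (SE 0.29, adjusted p = 0.183), and the responses differed by 1.65 (SE 0.41, adjusted p = 0.0104), called also in set 1 and without each single array.

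Aldh4a1 completes the step to glutamate. Untreated Aldh4a1 signals were 6.33, 6.59 and 5.20 in WT and 6.18, 6.35 and 6.32 in DKO. After DEN, Aldh4a1 gave 5.39, 5.84, 5.35, 5.75 and 5.79 in WT and 5.02, 4.75, 4.49, 5.08 and 4.86 in p53KO. It was 5.18, 5.38, 5.27 and 4.93 in RbKO and 5.19, 5.44, 5.01, 4.29 and 3.63 in DKO. The p53KO arrays were all below the WT arrays after DEN, and the DKO arrays of set 3 were lower than all others. The DEN difference in DKO was -1.30 (SE 0.26, adjusted p = 0.000716) and in WT -0.39 (SE 0.25, adjusted p = 0.444), or -0.93 in set 1 alone (adjusted p = 0.001). DKO was -0.77 (SE 0.24, adjusted p = 0.039) against WT after DEN, and -0.31 in set 1 (adjusted p = 0.18). Glud1, the glutamate dehydrogenase that frees ammonia, fell after DEN in DKO from 10.66 ± 0.043 (SD, n = 3) to 10.08 ± 0.082 (n = 5), a difference of -0.64 (SE 0.12, adjusted p = 0.000462). Aass, the first enzyme of lysine breakdown, was not called over all sets, and in set 1 alone untreated DKO was lower than WT, at -0.90 (adjusted p = 0.0044).

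In the urea cycle Asl (argininosuccinate lyase) was called in 3 comparisons. Untreated Asl signals were 10.01, 10.01 and 7.80 in WT and 9.56, 9.42 and 9.28 in DKO. After DEN, Asl gave 9.80, 8.94, 8.98, 9.37 and 9.01 in WT and 9.14, 9.16, 8.62, 8.70 and 8.33 in p53KO. It read 8.21, 8.40, 8.31 and 7.60 in RbKO and 8.37, 8.35, 8.22, 7.83 and 8.09 in DKO. RbKO and DKO arrays were all below the WT arrays after DEN, and untreated WT replicate 3 was far below the other untreated arrays. Relative to WT after DEN, Asl was 2.31-fold lower in RbKO, at -1.21 (SE 0.23, adjusted p = 0.00274), and 2.25-fold lower in DKO, at -1.17 (SE 0.25, adjusted p = 0.00347). Set 1 alone gave -0.93 and -0.93, both called, and in p53KO -0.089 (adjusted p = 0.848). The DEN difference of Asl in DKO was -1.06 (SE 0.27, adjusted p = 0.00569). In WT it was -0.00079 (SE 0.25, adjusted p = 1), with -0.77 in set 1 (adjusted p = 0.0118), and the 1 untreated array of set 2 was below every WT array after DEN.

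Nags makes the N-acetylglutamate that activates carbamoyl phosphate synthetase. Untreated Nags signals were 5.94, 5.96 and 4.72 in WT and 5.55, 5.39 and 5.38 in DKO. After DEN, Nags gave 5.52, 5.47, 5.16, 5.91 and 5.86 in WT and 5.43, 5.32, 4.74, 4.72 and 5.28 in p53KO. It was 4.94, 4.89, 4.88 and 5.21 in RbKO and 5.06, 5.13, 5.06, 4.93 and 5.05 in DKO. All DKO arrays were below all WT arrays after DEN, and RbKO overlapped WT only through replicate 4. RbKO was -0.60 (SE 0.19, adjusted p = 0.0445) against WT, which ended without any 1 of the 4 RbKO arrays or without WT replicate 1, 4 or 5 (adjusted p = 0.112 without WT replicate 5). The difference of DKO was -0.43 (SE 0.21, adjusted p = 0.198). Cps1, Otc and Arg1, the bulk enzymes of the cycle, were not called over all sets in any comparison. Cps1 averaged 12.34 ± 0.084 (SD, n = 3) in untreated WT and between 11.75 and 11.98 in the other groups. Otc averaged 9.29 to 9.58 and Arg1 10.39 to 10.93. In set 1 alone Cps1 was -0.43 after DEN in WT (adjusted p = 0.0233).

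Of 50 further amino acid, one-carbon and nitrogen genes, 48 were tested, and after DEN in DKO 32 were called lower and 0 higher (all genes, 16.5% and 4.49%), at a median of -0.66. The 3 with the smallest p were the glutamine transporter Slc38a3 at -1.42 (SE 0.20, adjusted p = 1.87e-05), the sarcosine dehydrogenase Sardh at -1.69 (SE 0.24, adjusted p = 2.71e-05) and the creatine enzyme Gamt at -1.22 (SE 0.18, adjusted p = 3.64e-05). After DEN in WT 7 were lower (1.91% of all genes), led by glutamine synthetase Glul at -1.23 (SE 0.17, adjusted p = 6.18e-05) and Oat, the ornithine aminotransferase, at -1.23 (SE 0.20, adjusted p = 0.000508), and in set 1 alone 22 (5.96%). RbKO had 14 (6.13%) and DKO 12 (9.14%) of them below WT after DEN, and Slc38a3 led both, at -1.10 (SE 0.17, adjusted p = 0.00131) and -1.03 (SE 0.19, adjusted p = 0.000849). Oat was also lower in untreated DKO than in WT, at -1.41 (SE 0.23, adjusted p = 0.00126). Of 28 regulators of gluconeogenesis and glucose-handling genes, 23 were tested, and 13 were lower and 1 higher after DEN in DKO (16.5% and 4.49% of all genes), at a median of -0.53. Hnf4a, a main transcription factor of hepatocytes, led them at -1.37 (SE 0.21, adjusted p = 6.1e-05), followed by glycogen synthase Gys2 at -0.89 (SE 0.16, adjusted p = 0.000242) and the glucose transporter Slc2a2 at -0.89 (SE 0.17, adjusted p = 0.000394). Slc37a4, which carries glucose-6-phosphate to the phosphatase, was -0.84 (SE 0.21, adjusted p = 0.011) in RbKO and -0.79 (SE 0.22, adjusted p = 0.0211) in DKO against WT after DEN.

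Levels of other genes moved with these groups. The mean signal of 6 hepatocyte markers, of 8 listed, was 11.64 to 11.80 in untreated WT, 11.52 to 11.64 in untreated DKO, 11.46 to 11.61 in WT after DEN, and 11.25 to 11.34 in p53KO, 11.26 to 11.57 in RbKO and 11.17 to 11.35 in DKO after DEN. After DEN in DKO, 3 of the 6 were called lower (Hnf4a, Apob and Apoa1) and 1 higher (all genes, 16.5% and 4.49%), at a median of -0.17. Hnf4a was also called lower after DEN in WT and, against WT after DEN, in RbKO and DKO. All 8 endothelial markers were tested, and 7 were called lower after DEN in DKO (16.5% of all genes), at a median of -0.92. In DKO against WT after DEN 6 were lower (9.14% of all genes). The mean signal of the 8 was 6.46 to 6.96 in untreated WT, 6.78 to 6.89 in untreated DKO, 6.41 to 6.81 in WT, 5.88 to 6.36 in p53KO, 6.18 to 6.53 in RbKO and 5.81 to 6.13 in DKO after DEN. Of 8 neutrophil and myeloid precursor markers, 3 were higher in untreated DKO than in WT, where 177 of 15951 genes were called in either direction. After DEN in DKO 5 were lower (16.5% of all genes). The mean signal of these 8 was 4.71 to 4.83 in untreated WT, 6.09 to 6.70 in untreated DKO and 4.82 to 5.74 in DKO after DEN. Of the Kupffer cell and stellate cell markers, 8 each, 3 and 4 were lower after DEN in DKO (16.5% of all genes). Of the lymphocyte and cholangiocyte markers that could be tested, 3 and 4, none was called there (0 and 1 had an unadjusted p under 0.05). Of 8 erythroid markers 3 could be tested, and Alas2, of heme synthesis in red cells, and Slc4a1, the red cell anion exchanger, were lower after DEN in DKO, at -0.63 (SE 0.18, adjusted p = 0.0135) and -0.52 (SE 0.15, adjusted p = 0.0136). Alas2 was also lower in DKO than in WT after DEN, at -0.63 (SE 0.17, adjusted p = 0.0157). The mean signal of the 4 erythroid markers measured, tested or not, was 4.99 to 5.26 in untreated DKO and 4.45 to 4.91 in DKO after DEN. The spread of the 35555 log2 signals of an array moved as well: its SD was 2.11 and 2.13 in set 1 of untreated WT, 2.14 to 2.17 in untreated DKO, and, in set 1 after DEN, 2.11 to 2.14 in WT, 2.09 in p53KO, 2.07 to 2.09 in RbKO and 2.04 to 2.07 in DKO. In sets 2 and 3 it was 1.94 to 2.04. After another quantile normalization, which gives all arrays the same spread, 18 members were called lower and 1, Cth, higher after DEN in DKO (12.0% and 4.61% of all genes), and 17 were lower in RbKO and 13 in DKO against WT (5.9% and 6.39%). The part of the cell markers and of the array spread in these results was not tested otherwise, and in whole liver fewer cells of a type and less RNA per cell cannot be told apart.

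**Figure D5:**
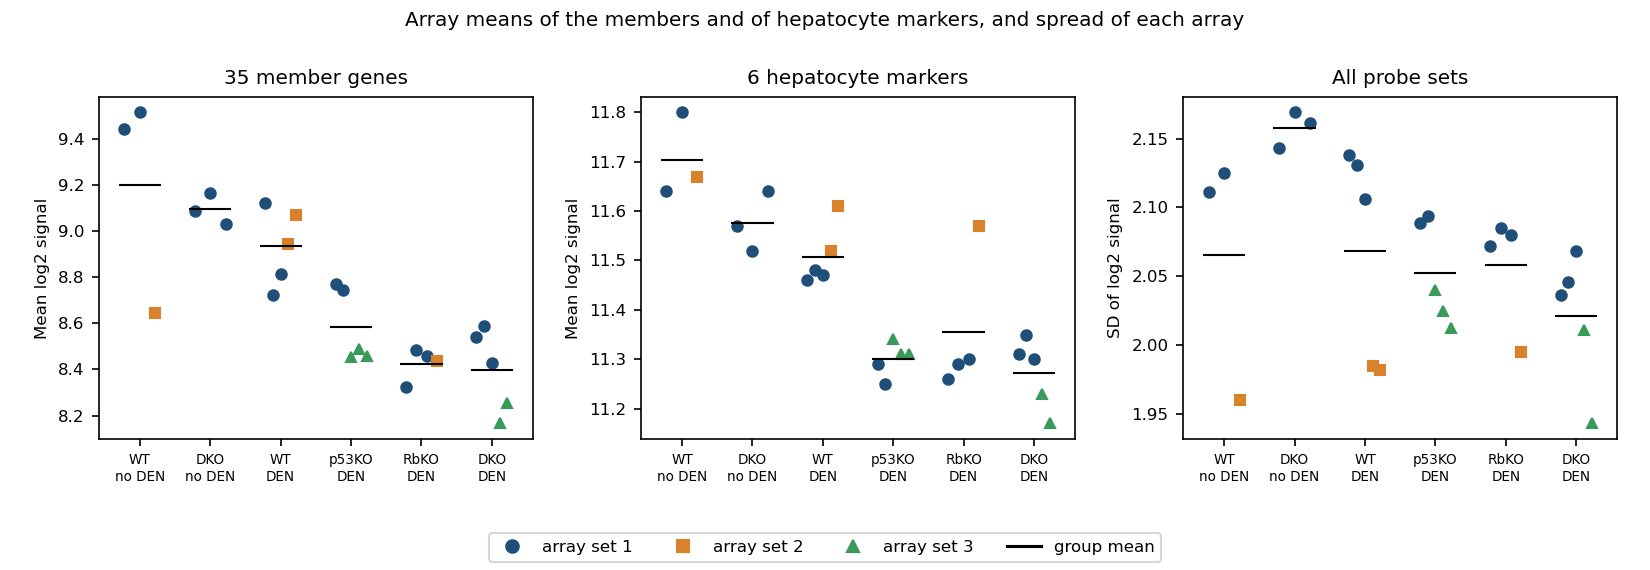
Each symbol is 1 array, by group and array set, with the group mean as a line: the mean log2 signal of the 35 genes, the mean of 6 hepatocyte markers, and the SD of all 35555 log2 signals of the array. The means of the 35 genes run from 9.51 to 8.17 and those of the hepatocyte markers from 11.80 to 11.17, and set 2 has the smallest SD in the groups it shares with set 1.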

How the data were processed

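Per the labels' protocols, the WT-Ovation Pico kit amplified total RNA from frozen liver, and 25 Affymetrix arrays were hybridised. The deposited values are log2 signals of 35555 probe sets that the authors made by RMA with Affymetrix Expression Console 1.1, per the submitters' processing notes; the genome build is not given in the sources used here.

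Of the 35555 probe sets, 23409 were listed in the platform annotation, 21789 with 1 symbol and 1620 with several, which were not named. The brightest probe set stood for a gene (19938 genes), and genes with a mean of at least 3.33, the 20th percentile, were tested (15951). limma 3.58.1 in R 4.3.3 fitted group and array set over all 25 arrays, with Benjamini-Hochberg adjustment over all genes tested and calls under 0.05, and was tested on simulated data first. Figures were drawn with matplotlib 3.10.9. The number of arrays limits the precision.

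Members and lists were chosen with earlier results of these data known. In each pathway the 2 members called in the most comparisons, ties by smallest p, have values for every array. Other members have group means or ranges, and of the other lists those with the smallest p are named. Alternatives were set 1 alone, without set 2, no set term, set as a random block (statmod 1.5.0), other filters, probe set means, centring, quantile normalization, eBayes settings, only the groups compared, and leaving out each array. Set 2 or 3 alone and centring on the genes tested were chosen after seeing the data.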

Additional observations from a re-analysis of the deposited data

Results flagged for a closer look

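Single arrays stood apart from their group by Dixon's test in 7 of 140 combinations of a member and a DEN group, and chance flags about 1 in 20. RbKO replicate 4, the 1 array of that group in set 2, held 4 of the 7. Its Pck1 signal of 9.18 was the highest of the group, with 8.40 next, and its Nags signal of 5.21 was the highest, with 4.94 next. Its Hgd signal of 9.62 was the lowest, with 10.33 next, and its Ftcd signal of 6.46 was the lowest, with 6.65 next. WT replicate 1 after DEN had the highest Tat signal, 11.19 with 10.30 next, and the highest Aass signal, 9.85 with 9.25 next. DKO replicate 2 after DEN had the highest Ftcd signal, 6.83 with 6.42 next.

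The DEN response of DKO differed from that of WT for 11 members in limma. The difference, DKO response minus WT response, was -1.46 for Got2, -1.30 for Pck1, -1.29 for Ftcd, -1.19 for Cbs, -1.17 for Agxt, -0.91 for Fah, -0.84 for Gstz1, -0.81 for Fbp1 and -0.60 for Hgd, and 1.17 for Gpt2 and 1.65 for Prodh. In set 1 alone these were -0.90, -0.64, -0.63, -0.48, -0.61, -0.28, -0.56, -0.66, -0.43, 1.39 and 2.16 in the same order, of which Got2, Fbp1, Gpt2 and Prodh were called. Without untreated WT replicate 3, the calls of Pck1 (adjusted p = 0.0609), Ftcd (0.0943), Cbs (0.0927), Agxt (0.0729), Fah (0.248), Gstz1 (0.0542) and Hgd (0.0818) ended. That of Gpt2 ended without untreated WT replicate 2 (0.0519). The call of Fah also ended without any 1 of the 3 untreated DKO arrays, DKO replicate 3 or WT replicates 4 or 5 after DEN. The calls of Got2, Fbp1 and Prodh remained without each single array.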

How the results depend on the processing

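None of the 71 calls of a member changed sign under the alternatives run. Of 710 values with 1 array left out, 79 lost the call and 631 kept it. Counts of members called moved with the array set term, the choice of sets, the groups in the fit and single arrays. For DEN in WT (2 called) the count was 0 with no set term, 1 with the set as a random block, 21 in set 1 alone, 18 without set 2, 1 with no filter, 4 after quantile normalization, 0 with only the groups compared and 5 in set 2 alone, and 0 to 14 with 1 array left out. For the difference between DEN responses (11) it was 7 with no set term, 5 in set 1 alone and 5 without set 2, and 4 to 13 with 1 array left out. For untreated DKO against WT (2) it was 1 with no set term, 9 in set 1 alone, 6 without set 2 and 10 with only these groups, and 0 to 5 with 1 array left out. For p53KO against WT (2) it was 4 with no set term, 11 in set 1 alone and 1 after quantile normalization, and 0 to 3 with 1 array left out. For RbKO against WT (17) it was 8 with no set term and 8 without set 2, and 12 to 20 with 1 array left out. For DKO against WT (17) it was 5 with only these groups, and 12 to 18 with 1 array left out. For DKO against p53KO (1) it was 0 with no set term, 6 in set 1 alone, 6 without set 2 and 3 with only these groups, and 0 to 1 with 1 array left out. For DKO against RbKO (0) it was 1 in set 1 alone and 1 without set 2. For p53KO against RbKO (1) it was 0 with no set term, 9 in set 1 alone, 5 without set 2 and 8 with only these groups, and 0 to 1 with 1 array left out. For DEN in DKO (18) every alternative run stayed within 1.5 times the count, 16 to 19 with 1 array left out. Calls over all 15951 genes moved too. DEN in WT had 636, against 142 with no set term, 1747 in set 1 alone and 1086 without set 2. With only its groups it had 203. Untreated DKO against WT had 177, which became 72, 891, 515 and 1112 in the same order. DKO against WT after DEN had 1887, and 523 with only these groups. Member counts often rose and fell with these calls, but not always. The reverse held, among others, for DKO against p53KO with only these groups (298 to 168) and against RbKO without set 2 (164 to 152). For DEN in DKO with only its groups, members called went from 18 to 23 while all genes called went from 3344 to 2950. The cause of these moves was not tested, beyond fewer arrays entering the smaller fits. Centring on the genes tested moved the members' median from -0.53 to -0.42 for DEN in DKO, where 17 members were then lower and 1 higher. For the difference between responses it moved from -0.48 to -0.35. No paired analysis was possible because replicate numbers were given in accession order and pair no samples.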
